A study of Rattus norvegicus with 18 samples.

Results

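Periplocin treatment of rat H9c2 cells was compared with untreated control cells over all genes of the authors' expression table whose mean normalized count was at least 10. The threshold kept 10695 of the 17455 genes listed, of which 10688 had a p-value, and the 6760 genes below it, 4542 of them listed at 0, were left out. H9c2 is a wild-type myoblast line of rat heart muscle. The series held 18 libraries in 6 groups of 3, with m6A pull-down and input libraries kept apart for control, bufalin and periplocin, 3 conditions in all. The comparison described here rests on the 6 input libraries of control and periplocin, as the labels name them, although the table itself does not say which libraries it was made from. The labels give neither dose nor time and do not say whether the 3 libraries of a group came from separate cultures, so the p-values measure the spread between these samples only. Values and depths of single libraries were not analysed here. Each level below is therefore a fitted group level, which follows from a gene's mean and its change, and its error is the authors' standard error. In a bulk sample, fewer cells of a type and less RNA per cell cannot be told apart.

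Periplocin is a plant glycoside of the cardenolide type, a cardiotonic steroid with sugars attached, and bufalin is a cardiotonic steroid of the bufadienolide type from toad venom. Such steroids bind and inhibit the Na/K-ATPase, the membrane pump that moves sodium out of the cell and potassium in. In heart muscle a slowed pump lets sodium build up and, through sodium and calcium exchange, raises calcium, and the pump is also linked to Src and MAP kinase signalling. A common early reading of such signals is a set of immediate early genes, short genes whose RNAs appear and decay within a short time, among them the subunits of the AP-1 transcription factor. The series' design text asks whether m6A, a methyl mark inside mRNA, takes part in the heart toxicity of these compounds.

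Few genes passed the test, and nearly all of those that did were higher with periplocin. In the authors' deposited table (DESeq2 Wald test, Benjamini-Hochberg adjusted p under 0.05), 60 of 10688 tested genes were called (0.561%), 57 higher (0.533%) and 3 lower (0.0281%). The 5 genes higher by at least 2-fold were Mboat7, whose listed change is uncertain and is given with its near-identical entries, the AP-1 subunits Fosb at 4.52-fold and Atf3 at 2.03-fold, the receptor kinase Epha1 at 2.32-fold and the transcription inhibitor Eid3 at 2.20-fold. The 3 lower genes were Steap2, Itga4 and Hspb1. The rises were mostly small: their median was 1.31-fold, 42 were under 1.5-fold, 15 reached 1.5-fold and 5 reached 2-fold. At an unadjusted p under 0.05 the authors' deposited table held 698 genes (6.53%), 454 higher and 244 lower. Over all members the median log2 fold change was -0.00, with quartiles of -0.07 and 0.08, and 49.5% of the genes lay above 0.

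**Figure D1:**
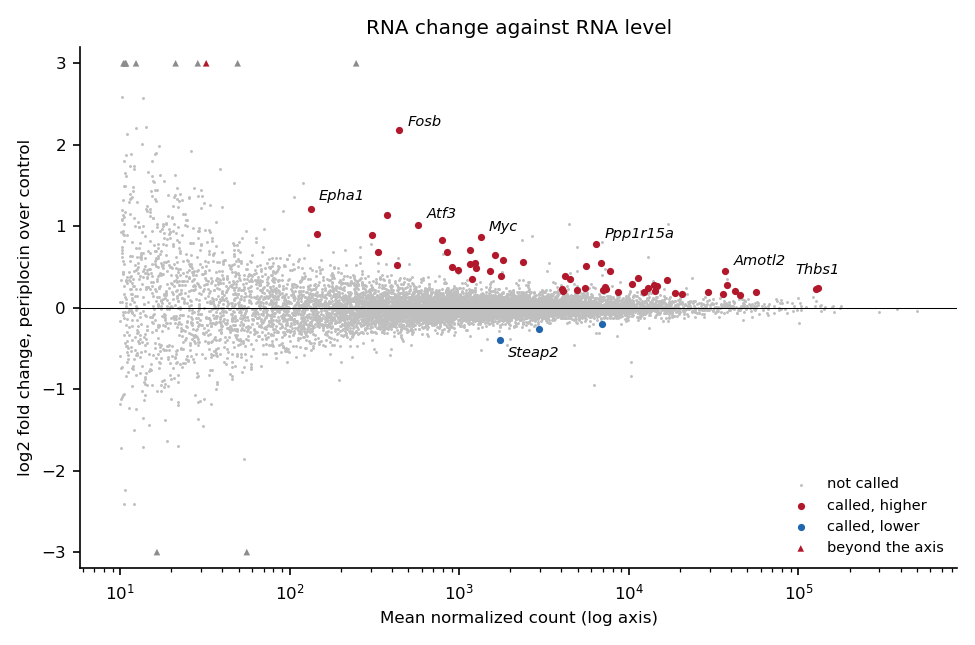
Each point is a gene; the x axis is its mean normalized count (log axis, not corrected for gene length) and the y axis its log2 fold change, periplocin over control, with triangles for the 12 genes beyond 3 in either direction. Of the 60 called genes, coloured, 57 lie above 0 and 3 below, and the cloud of genes narrows towards high counts.

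How small a change could be called depended on the count. In the lowest of 5 equal bins of the members by mean count (10 to 182) the median standard error was 0.42 on the log2 scale, and the smallest called change was 1.88-fold, for Olr812. In the highest bin (3592 to 501026) the median standard error was 0.05, and the smallest called change was 1.12-fold, for Macf1. The bins held 3, 6, 10, 7 and 34 called genes from low to high counts, and 47 of the 60 lay at or above the median mean of 1014. At the threshold of 10 itself, the members just inside were Fbxo48 with a mean of 10.001, Tox with 10.01 and Mbp with 10.01, at 0.894-fold, 0.664-fold and 1.05-fold. Just outside were Ghrl with a mean of 9.99, Tst with 9.99 and Myog with 9.98, at 4.62-fold, 0.419-fold and 0.789-fold. None of these 6 genes was called, and each of their 95% Wald intervals held 1.

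AP-1 is a dimer of Fos, Jun, Atf or Maf family proteins that binds DNA upstream of growth, stress and matrix genes. Fosb, a Fos family subunit, rose from a fitted level of 160 normalized counts in control to 725 with periplocin, 4.52-fold (95% Wald interval 3.37 to 6.07). Atf3, a stress-induced member of the family, rose from 377 to 765, 2.03-fold (1.49 to 2.76). The Fos-related Fosl1 rose from 881 to 1441, 1.63-fold (1.40 to 1.90), and Fosl2 from 3952 to 5026, 1.27-fold (1.12 to 1.45). The authors' deposited table gave these 4 genes DESeq2 adjusted p-values from 1.49e-19 for Fosb to 0.0446 for Fosl2. In all, 4 of the 12 measured AP-1 subunits were called and 11 of the 12 lay above 0, with a median log2 fold change of 0.31 against -0.00 over all members. Among the subunits not called, picked out here after their values were seen, Fos stood at 2.05-fold with a wide interval (1.20 to 3.49), Jun at 1.32-fold (1.06 to 1.65) and Maff at 1.21-fold (1.09 to 1.35). Their DESeq2 adjusted p-values in the authors' deposited table were 0.394, 0.486 and 0.0571. The point estimate of Fos was thus as high as that of Atf3, but its interval was wider and it missed the threshold.

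Other early transcription factors were higher as well. Myc, which drives cell growth and ribosome production, rose from 946 to 1722, 1.82-fold (1.55 to 2.14). The Kruppel-like zinc finger factors Klf6 and Klf4 rose from 5575 to 8186, 1.47-fold (1.30 to 1.65), and from 824 to 1135, 1.38-fold (1.17 to 1.62). Csrnp1, an early-response nuclear factor, rose from 1048 to 1473, 1.41-fold (1.24 to 1.59). Cited2, which binds the CBP and p300 acetyltransferases, rose from 12754 to 15422, 1.21-fold (1.11 to 1.32). The authors' deposited table gave these genes DESeq2 adjusted p-values from 1.16e-09 for Myc to 0.0278 for Klf4. Csrnp1 was the only called gene among 23 measured Egr, Nr4a, Ier and Srf-linked early genes. Of these 23, 21 lay above 0, with a median log2 fold change of 0.18. Egr1 and Ptgs2, named after their values were seen, were at 1.75-fold (1.03 to 2.98) and 1.77-fold (1.26 to 2.5) and did not pass, with DESeq2 adjusted p-values of 0.723 and 0.117 in the authors' deposited table. Klf6 and Klf4 were 2 of 13 measured Kruppel-like factors, whose median was 0.05, and Myc was the only called gene of 10 in its Max network, with a median of 0.04. The 20 measured Myc target genes of nucleotide and ribosome production held no call by the authors' DESeq2 test, with 3 at an unadjusted p under 0.05 and a median of 0.05.

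Genes that restrain or relay kinase signals formed another group. Dusp1, a phosphatase that switches off MAP kinases, rose from 4596 to 6537, 1.42-fold (1.27 to 1.59), and was the only called gene among 16 MAP kinase phosphatases and Sprouty or Spred inhibitors. Amotl2, an angiomotin family protein that binds the Hippo pathway effector YAP, rose from 31188 to 42650, 1.37-fold (1.27 to 1.48). Its DESeq2 adjusted p in the authors' deposited table was 3.39e-12, yet it was the only called gene of 24 Hippo pathway and YAP target genes, whose median log2 fold change was 0.04. Rgs2, which speeds the shut-off of G proteins, rose 1.47-fold (1.28 to 1.69), and the polo-like kinase Plk3 rose 1.45-fold (1.22 to 1.73). The pseudokinase Trib1 rose 1.42-fold (1.21 to 1.66), and the small GTPase Rnd3 rose 1.27-fold (1.14 to 1.41). Sphk1, which makes sphingosine 1-phosphate, rose 1.27-fold (1.12 to 1.44), and the lipid kinase Pik3c2a rose 1.17-fold (1.08 to 1.27).

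Of secreted and cell-surface proteins, Edn1, the precursor of the vessel-constricting peptide endothelin-1, rose from 649 to 1042, 1.61-fold (1.35 to 1.91). It was the only called gene among 23 EGF receptor ligands and growth factors, of which 19 lay above 0, with a median log2 fold change of 0.13. Thbs1, a matricellular protein that activates latent TGF-beta, rose from 116556 to 136770, 1.17-fold (1.10 to 1.25), the only called gene of 16 matricellular genes. Bmp4, a ligand of the BMP receptors, rose 1.18-fold (1.10 to 1.27) and was the only called gene of 28 in the TGF-beta and BMP list. The medians of these last 2 lists lay slightly below 0, at -0.02 and -0.03. The receptor kinases Epha1 and Epha2 rose 2.32-fold (1.54 to 3.5; 79.8 to 185) and 1.15-fold (1.07 to 1.23), and the proprotein convertase Pcsk7 rose 1.37-fold (1.22 to 1.53).

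Regulators of transcription and chromatin among the called genes numbered 11, a grouping made after the calls were seen. Hexim1, which holds the elongation kinase P-TEFb inactive, rose from 3611 to 4736, 1.31-fold (1.18 to 1.46), and Brd2, a BET protein that reads acetylated histones, rose from 6583 to 8961, 1.36-fold (1.21 to 1.54). They were 2 of 22 measured genes of elongation and BET control, 17 of which lay above 0, with a median log2 fold change of 0.06. Eid3, an inhibitor of p300-linked transcription, rose from 233 to 513, 2.20-fold (1.56 to 3.10). Ppp1r10, which targets protein phosphatase 1 to chromatin, rose from 1267 to 1981, 1.56-fold (1.39 to 1.76), with a DESeq2 adjusted p of 1.5e-10 in the authors' deposited table. The general factor subunit Taf7 rose 1.31-fold (1.16 to 1.48), and Trrap, the scaffold of histone acetyltransferase complexes, rose 1.22-fold (1.14 to 1.32). Baz2a, Arid4b and the osmotic stress factor Nfat5 rose 1.16-fold, 1.17-fold and 1.16-fold. The other members of the group were Zfp518a at 1.43-fold and Tsc22d1 at 1.18-fold. Among RNA-processing genes, the RNA-binding protein Hnrnpdl rose 1.20-fold (1.13 to 1.28), the splicing regulators Sfswap and Acin1 rose 1.17-fold and 1.15-fold, and the RNA helicase Ddx5 rose 1.12-fold (1.07 to 1.17).

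Several genes linked to stress responses were higher. Ppp1r15a, which guides protein phosphatase 1 to the translation factor eIF2alpha, rose from 4686 to 8069, 1.72-fold (1.40 to 2.12), and its constitutive relative Ppp1r15b rose from 6618 to 7925, 1.20-fold (1.11 to 1.29). With Ppp1r10 they were 3 called of 14 protein phosphatase 1 regulators, of which 7 lay above 0 and 7 below. The 31 measured genes of the integrated stress and unfolded protein response held no call by the authors' DESeq2 test, with a median log2 fold change of 0.01. Of the 31, 7 had an unadjusted p under 0.05, 4 higher and 3 lower. That is a larger share than the 6.53% over all members, and the excess was not tested. That list leaves out Ppp1r15a, Ppp1r15b and Atf3, which also belong to this response, were called and are counted in other lists. Zfand2a, a proteasome-associated gene induced by arsenite, rose 1.47-fold (1.27 to 1.70), while Hspb1, a small heat shock protein, fell to 0.868-fold (0.808 to 0.933); these were the only calls among 28 heat shock and proteotoxic stress genes. Mdm2, the ubiquitin ligase that limits p53, rose 1.28-fold (1.17 to 1.41) and was called with Plk3 among 27 p53 regulators and targets, whose median was 0.05. The inflammasome sensor Nlrp3 rose 1.61-fold (1.27 to 2.03) from a low count, 253 to 407. The amino acid transporter Slc38a2 rose 1.15-fold (1.08 to 1.22) and the ubiquitin ligase Ubr4 1.13-fold (1.07 to 1.19).

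A set of very large proteins of the cytoskeleton and membrane traffic moved by little but with narrow intervals. The plakins Plec, Dst and Macf1, which link filaments to each other and to the cell edge, rose 1.22-fold (1.14 to 1.30), 1.14-fold (1.09 to 1.20) and 1.12-fold (1.07 to 1.17). The scaffold Ahnak rose from 120310 to 142048, 1.18-fold (1.12 to 1.25), and the dynein motor's heavy chain Dync1h1 rose 1.15-fold (1.10 to 1.21). The centrosome and Golgi scaffold Akap9 and the endosome tether Eea1 rose 1.12-fold (1.06 to 1.19) and 1.14-fold (1.07 to 1.21). In the authors' deposited table the DESeq2 adjusted p-values of these 7 genes ran from 3.84e-06 for Plec to 0.0321 for Akap9.

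Only 3 genes fell by the authors' DESeq2 test. Steap2, a metalloreductase of iron and copper uptake, went from 1966 to 1490, 0.758-fold (0.676 to 0.850). Itga4, the alpha 4 integrin chain, went from 3235 to 2690, 0.832-fold (0.757 to 0.913), and Hspb1 from 7408 to 6434. Their adjusted p-values in the authors' deposited table were 0.000909, 0.0260 and 0.0260. Steap2 was the only called gene of 15 in iron handling, and Itga4 the only called gene of 29 collagens, laminins and integrins. In the latter list 18 genes lay below 0 and the median log2 fold change was -0.02.

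**Figure D2:**
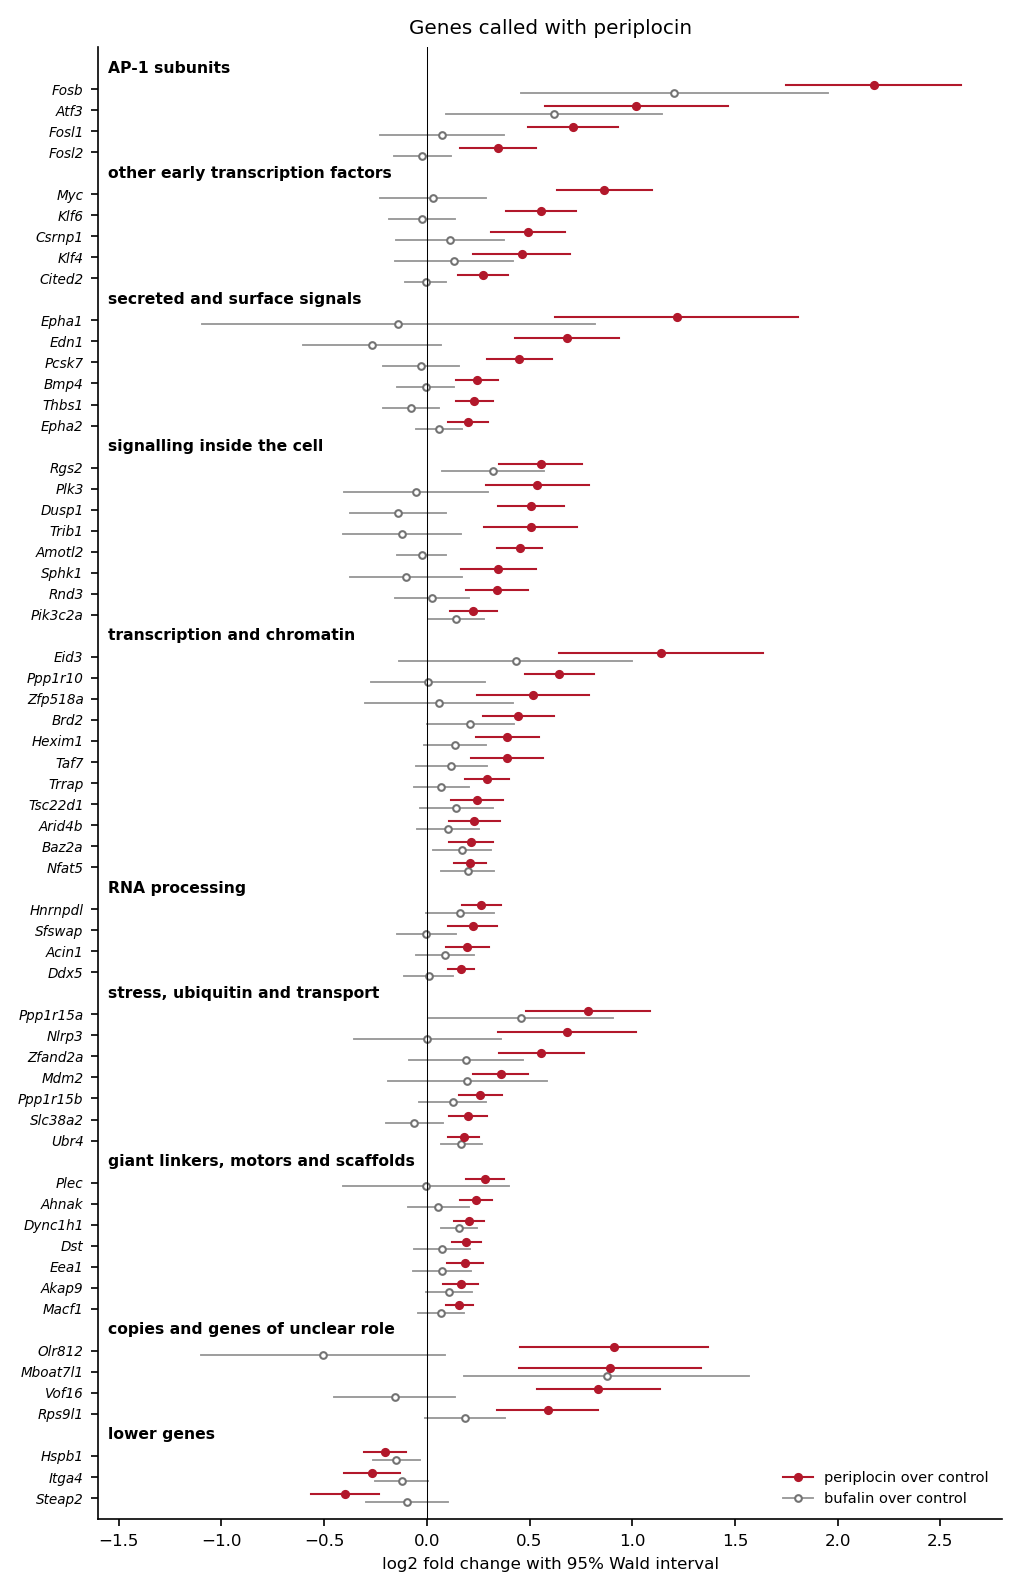
Log2 fold changes with 95% Wald intervals of 59 of the 60 called genes (Mboat7 is off the scale), grouped by role, for periplocin over control (filled) and bufalin over control (open). Fosb lies highest at 4.52-fold with periplocin and 2.31-fold with bufalin, and the filled points of Steap2, Itga4 and Hspb1 lie below 0.

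Promoters of 4 higher genes are shown because their letters hold a motif of an early-response factor. The sequences are the 250 bases before the transcript start, 5′ to 3′ on the gene's strand, from RefSeq (build GRCr8), with the match in capitals.
Dusp1, chr10:17184603-17184852, plus strand: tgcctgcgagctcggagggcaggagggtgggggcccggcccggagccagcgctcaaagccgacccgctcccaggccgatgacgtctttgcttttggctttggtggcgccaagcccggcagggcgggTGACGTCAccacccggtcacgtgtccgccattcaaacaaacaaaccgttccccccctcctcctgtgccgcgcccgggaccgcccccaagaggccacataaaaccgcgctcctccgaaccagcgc
Ppp1r15a, chr1:105139597-105139846, minus strand: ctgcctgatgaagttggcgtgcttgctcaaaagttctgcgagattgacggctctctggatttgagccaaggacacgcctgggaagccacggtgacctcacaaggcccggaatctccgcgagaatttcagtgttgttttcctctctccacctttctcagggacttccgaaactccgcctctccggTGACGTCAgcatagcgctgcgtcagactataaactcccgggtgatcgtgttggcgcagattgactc
Brd2, chr20:4729829-4730078, plus strand: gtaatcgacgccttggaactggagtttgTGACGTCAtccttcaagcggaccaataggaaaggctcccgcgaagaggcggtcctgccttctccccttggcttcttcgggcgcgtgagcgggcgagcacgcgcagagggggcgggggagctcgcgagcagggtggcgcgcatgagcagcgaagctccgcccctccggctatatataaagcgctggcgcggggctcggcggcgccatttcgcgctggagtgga
Klf6, chr17:69458479-69458728, minus strand: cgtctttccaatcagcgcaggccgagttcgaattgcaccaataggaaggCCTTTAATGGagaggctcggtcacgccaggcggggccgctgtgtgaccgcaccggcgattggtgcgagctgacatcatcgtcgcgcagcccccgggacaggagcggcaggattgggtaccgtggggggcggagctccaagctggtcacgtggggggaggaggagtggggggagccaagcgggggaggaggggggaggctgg
The capitals are the CRE word TGACGTCA in Dusp1, Ppp1r15a and Brd2, beginning 124, 66 and 222 bases before the start, and a CArG box, the Srf motif, in Klf6, beginning 201 bases before the start. Each printed sequence holds 1 match, so no match overlaps another there.

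In the search, 50 of the 57 higher genes matched a RefSeq promoter window (250 bases before to 50 after the start), and both strands were read. The CRE word TGACGTCA was in 4 of the 50 (8.0%), the 3 above and Epha2, against 1.91% of all 27457 promoters and 3.4% of the promoters of 8737 matched members. The AP-1 word TGANTCA was in 2 (4.0%), Ppp1r15a and Zfand2a, against 7.33% of all promoters and 4.82% of members. The CArG box was in 2 (4.0%), Klf6 and Rnd3, against 1.64% and 1.20%. The AP-1 match of Ppp1r15a was found only when the bases after the start were read as well. In all, 7 of the 50 higher genes held any of these words, and the shares were not tested. The promoters of Fosb and Fosl1, the AP-1 subunits with the lowest adjusted p-values, held no match in these windows.

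Another 5 genes called higher need care because of their names or sequence families. Mboat7, an acyltransferase gene, was listed with a mean of 32.1 and a fitted control level of 0.181, below the floor of 3 counts per library. Its fitted periplocin level was 64.0, which is 21.3-fold that floor. Mboat7l1 rose from 214 to 398, 1.86-fold (1.37 to 2.53), and Rps9l1, named after a ribosomal protein gene, rose from 1440 to 2163, 1.5-fold (1.27 to 1.78). In RefSeq the names Mboat7l1 and Tsen34l1 are older names of Mboat7 and Tsen34, Rps9l1 is also a synonym of Rps9, and Rps9, Tsen34 and Mboat7 lie next to each other in that order. Reads of these near-identical entries could have been split between them in counting, so their changes are uncertain. The counterpart Rps9 stood at 1.01-fold (0.942 to 1.08) and Tsen34 at 0.768-fold (0.380 to 1.55; 2241 to 1720), neither called. Tsen34l1, which had no p-value, was fitted at 2.62 in control and 489.5 with periplocin. Its Wald interval ran from 2.19-fold to 15928-fold. In the bufalin comparison Tsen34l1 was fitted at 2.72 in control and 0.680 with bufalin. Whether reads moved between these entries was not tested. With bufalin, the fitted level of Mboat7 was 20.4-fold the same floor. Its listed change with bufalin had a Wald interval from 1.62-fold to 66249.9-fold, so the size of that rise is not known. Mboat7l1 was at 1.83-fold (1.13 to 2.97) with bufalin. The remaining pair were Olr812, an olfactory receptor gene of a large family, at 1.88-fold (1.37 to 2.58; 100.4 to 189), and Vof16, a gene of unclear role, at 1.78-fold (1.45 to 2.19; 569 to 1014). Without the 3 entries named for that locus, 57 called genes remained. The other members without a p-value were Mfsd14a, Ugt1a8, Morn5 and the myosin light chain entries Myl6, Myl6b and Myl6l.

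Bufalin was measured against the same control libraries, so the values of both compounds are set side by side and are not independent. The authors' DESeq2 test of bufalin could call only 35 of the 60 genes called with periplocin, and it called 0 of these 35. The rest, Fosb, Atf3, Myc and Edn1 among them, were given no adjusted p there. For them the missing call says nothing about a response to bufalin. Of all 60, 13 had an unadjusted p under 0.05 with bufalin. The matching shares over all genes, called or at that unadjusted p, were not worked out here. Neither the 0 nor the 13 therefore shows whether these genes answered bufalin more or less than other genes did. The difference between the compounds was tested over 10602 genes with a Wald test whose standard error ignores the shared controls and so is an upper limit, and 8 genes passed at a Benjamini-Hochberg adjusted p under 0.05 (0.0755%). Of the 8, 6 were among the 60 called genes, and all 6 were higher with periplocin. The overlap and the direction follow in part from how the genes were called, because the same periplocin change enters both tests. Myc was at 1.82-fold with periplocin and 1.02-fold (0.853 to 1.22) with bufalin, a log2 difference of 0.84 (0.49 to 1.18). Edn1 was at 1.61-fold and 0.831-fold (0.659 to 1.05), a difference of 0.95 (0.53 to 1.37), so its point estimates lay on opposite sides of the control. Dusp1 was at 1.42-fold and 0.908-fold, a difference of 0.65 (0.36 to 0.93). Klf6 was at 1.47-fold and 0.985-fold, a difference of 0.58 (0.34 to 0.81), Amotl2 at 1.37-fold and 0.982-fold, a difference of 0.48 (0.32 to 0.64), and Vof16 at 1.78-fold and 0.898-fold, a difference of 0.99 (0.57 to 1.41). Their adjusted p-values of the difference ran from 3.08e-05 for Amotl2 to 0.0120 for Edn1.

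The other 2 genes were lower with periplocin than with bufalin and were not called against control with periplocin. H19, an imprinted long noncoding RNA, was at 0.997-fold (0.943 to 1.06) with periplocin and 1.43-fold (1.34 to 1.52) with bufalin, a log2 difference of -0.52 (-0.64 to -0.39). Myh1, a fast skeletal myosin heavy chain, was at 0.849-fold (0.734 to 0.983) and 1.38-fold (1.18 to 1.61), a difference of -0.70 (-1.01 to -0.40).

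For the other 54 called genes the difference did not pass, which does not show that the compounds acted alike. Of all 60, 33 had an unadjusted p of the difference under 0.05 by that Wald test. The 60 were picked by their periplocin change, which is also part of the difference, so this number is raised by the choice itself. The share over all genes tested was not worked out here, so the 33 cannot be weighed against it. Fosb was at 4.52-fold with periplocin and 2.31-fold (1.37 to 3.87) with bufalin, a log2 difference of 0.97 with an interval from 0.11 to 1.83. Atf3 was at 2.03-fold and 1.54-fold (1.07 to 2.21), a difference of 0.40 (-0.29 to 1.09), and Ppp1r15a at 1.72-fold and 1.37-fold (1.01 to 1.88), a difference of 0.33 (-0.22 to 0.87). For some genes with high counts the intervals were narrow. Nfat5 stood at 1.16-fold and 1.15-fold, a difference of 0.01 (-0.14 to 0.16), and Ubr4 at 1.13-fold and 1.12-fold, a difference of 0.01 (-0.11 to 0.14). For others they were not: Plec, with a mean of 37896, had a difference of 0.29 (-0.13 to 0.70). Dose and time of both compounds are not in the labels, so these are differences between the treated samples as given.

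Of the Na/K-ATPase, the known target of cardiotonic steroids, the subunits given here were not called at the RNA level. The beta subunits Atp1b1 and Atp1b3, which carry the pump to the membrane, were at 1.04-fold (0.954 to 1.13) and 0.982-fold (0.909 to 1.06). Atp1b2 was at 1.24-fold (0.633 to 2.43), and the pump modulator Fxyd5 at 0.961-fold (0.842 to 1.10). Thus the intervals of Atp1b1 and Atp1b3 were narrow, and that of Atp1b2 was wide, at a low count. The wider list of 21 sodium and calcium transport genes held no call by the authors' DESeq2 test and 1 gene at an unadjusted p under 0.05, the calcium pump Atp2a2 at 0.921-fold (0.868 to 0.976). The potassium and chloride cotransporter Slc12a4, next in that list, was at 1.10-fold (0.997 to 1.22).

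The 29 pathway lists held 642 measured genes, and 24 of the 60 called genes were in a list, spread over 15 lists. The other 14 lists held no call by the authors' DESeq2 test. They are described by their medians, the 2 genes of smallest unadjusted p and, for some, their signs. Counts at an unadjusted p under 0.05 stand beside 6.53% over all members, and no list was tested against that share. Cell cycle and DNA replication genes had the lowest median log2 fold change of the pathway lists, -0.11, with 34 of 42 below 0 and 3 at an unadjusted p under 0.05. Ccna2, the cyclin of S phase and mitosis entry, was at 469 and 314, 0.670-fold (0.532 to 0.843), and Top2a, the topoisomerase of dividing cells, at 7046 and 5664, 0.804-fold (0.708 to 0.913). Both missed the threshold, with DESeq2 adjusted p-values of 0.0873 and 0.0952 in the authors' deposited table. Of the glycolysis and hypoxia genes, 24 of 26 lay above 0, with a median of 0.07 and 1 at an unadjusted p under 0.05. The pyruvate kinase Pkm was at 1.06-fold (1.0 to 1.12), and the hexokinase Hk2 at 1.34-fold with an interval from 0.848 to 2.11. Of the cholesterol and fatty acid synthesis genes, 23 of 30 lay below 0, with a median of -0.03 and 4 at an unadjusted p under 0.05. Hmgcs1, an early step of cholesterol synthesis, was at 0.926-fold (0.875 to 0.981), and the desaturase Scd at 0.914-fold (0.842 to 0.991).

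The remaining lists without a call had medians between -0.03 and 0.07. In the list of mRNA decay factors for short-lived transcripts, 14 of 19 genes lay above 0, with 1 at an unadjusted p under 0.05; Tob1, which recruits deadenylases, was at 1.24-fold (1.10 to 1.40) and Zfp36, which binds AU-rich elements, at 1.29-fold (0.986 to 1.70). In the integrated stress list the kinase Eif2ak4 was at 1.17-fold (1.07 to 1.29) and the transcription factor Atf4 at 1.29-fold (1.10 to 1.52). Of 21 inflammation and NF-kB genes, 3 had an unadjusted p under 0.05; the chemokine Cxcl1 was at 1.58-fold (1.22 to 2.05) and the NF-kB inhibitor Nfkbia at 1.27-fold (1.09 to 1.47). Among these genes the authors' deposited table gave the lowest DESeq2 adjusted p, 0.0631, to Tob1.

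Cell survival and oxidative stress genes were similarly short of the threshold. In the Bcl2 family, 3 of 15 genes had an unadjusted p under 0.05; the survival genes Mcl1 and Bcl2l1 were at 1.18-fold (1.06 to 1.31) and 1.17-fold (1.04 to 1.31). The third was Bcl2, also a survival gene, at 0.655-fold (0.435 to 0.986), named after its values were seen. Of 20 NRF2 and antioxidant genes, 3 did, with Osgin1 at 1.95-fold (1.12 to 3.38) and Txnip, which inhibits thioredoxin, at 0.633-fold (0.413 to 0.969). Of the Myc targets, the ribosome assembly factors Wdr12 and Nop56 were at 1.17-fold (1.05 to 1.31) and 1.12-fold (1.01 to 1.24).

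The muscle, ribosomal protein, respiratory chain and m6A lists had median log2 fold changes of 0.02, 0.01, -0.03 and -0.03. Above 0 lay 13 of 24 muscle genes and 23 of 35 ribosomal protein genes. Below 0 lay 21 of 30 respiratory chain genes and 12 of 18 m6A genes. Of 24 muscle and sarcomere genes, 2 had an unadjusted p under 0.05, the tropomyosin Tpm2 at 1.07-fold (1.02 to 1.13) and Myh1, given above. Of 35 cytosolic ribosomal protein genes 1 did, Rpl23 at 1.07-fold (1.0 to 1.15), with Rps6 next at 1.06-fold (0.997 to 1.12). Of 30 nuclear-encoded respiratory chain genes 1 did, Cox6a1 at 0.918-fold (0.849 to 0.994), with Sdhd at 1.14-fold (0.994 to 1.31). Of 18 m6A writers, erasers and readers 2 did, the nuclear reader Ythdc1 at 1.14-fold (1.04 to 1.25) and Hnrnpc, which binds RNA opened by the mark, at 0.903-fold (0.841 to 0.968).

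**Figure D3:**
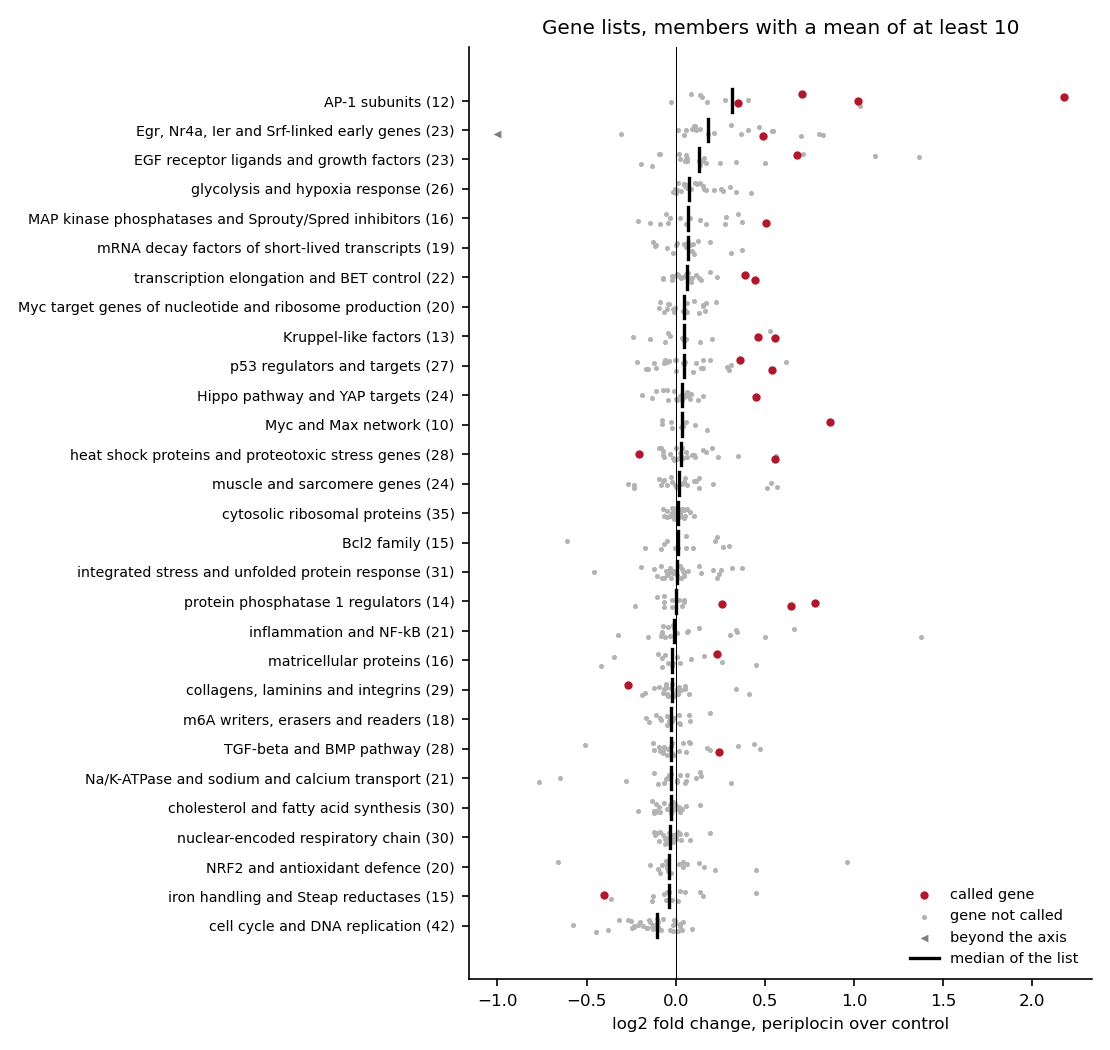
Each row is a pathway list with its number of measured genes, each point a gene's log2 fold change, periplocin over control, and each black bar the list's median; 1 point, Gem, lies beyond the axis. The AP-1 list has the highest median, 0.31, and the cell cycle list the lowest, -0.11, while most medians lie close to 0. Called genes are in red, and in several lists genes that were not called lie further from 0 than those that were.

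Gene length was looked at because immediate early genes are short. A RefSeq length, from the gene's start to its end, was found for 98.97% of the members, which had a median of 22.8 kb against 14.6 kb for the 60 called genes. The 15 genes higher by at least 1.5-fold had a median length of 7.18 kb, and the 42 genes with smaller rises 19.3 kb. Over 5 equal bins of the members from the shortest to the longest, 20, 14, 8, 5 and 13 genes were called, so that both ends held more than the middle. The median mean count went up over the same bins, from 536 to 1554. Among members with a mean of at least 1000, whose bins had median mean counts between 2520 and 3168, the called genes numbered 17, 10, 3, 6 and 11. Of the 15 called genes longer than 60 kb, 14 were higher and none reached 1.5-fold, and they were 0.630% of the 2381 members of that length, near the 0.561% over all members. Whether count, and with it precision, sets these numbers was not tested.

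**Figure D4:**
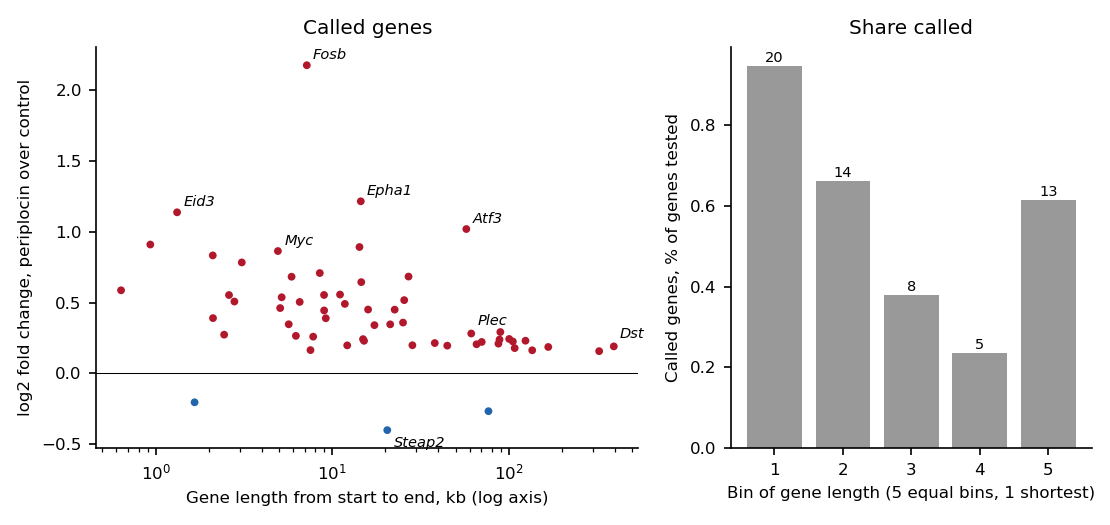
Left, log2 fold change of 59 called genes against gene length in kb (log axis; Mboat7 is off the scale), with higher genes in red and lower genes in blue; right, the percentage of tested genes called in each of 5 equal bins of length, with the number called above each bar. Genes over 60 kb all lie under 1.5-fold, and the bins hold 20, 14, 8, 5 and 13 called genes.

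The m6A peak list of periplocin gave another reading of the same genes. Of the 60 called genes 48 (80.0%) carried at least 1 listed peak, against 4866 of all members (45.5%). Peaks were listed more often on genes with high counts: from the lowest to the highest bin of mean count, 6.41%, 33.5%, 51.4%, 64.2% and 72.2% of members carried a peak, and 0 of 3, 5 of 6, 8 of 10, 5 of 7 and 30 of 34 called genes did. The called genes held 176 peaks, led by Ahnak with 25, Macf1 with 19, Dst with 13, Akap9 with 12 and Plec with 9. None of the 176 had an FDR of the m6A change under 0.05 in the authors' deposited table, and 9 (5.11%) had an unadjusted p under 0.05. On all members these numbers were 4 and 308 (3.36%) of 9155 peaks. The median log2 m6A change was -0.00 on called genes, with quartiles of -0.10 and 0.09, and -0.01 on members, with quartiles of -0.13 and 0.11. These values are over peaks, so genes with many peaks weigh more. Single peaks lay far outside these quartiles, at 2.17 and 2.10 for both peaks of Arid4b and at -0.89 for 1 of the 8 of Pik3c2a. The peak list does not state the direction of its change, which was read as treated over control. Thus no m6A change was called on the genes whose RNA was called.

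Defining markers of the labelled cell type and of others were checked. Of 15 myoblast and mesenchymal markers, 12 had a mean of at least 10, with a summed fitted level of 139718 in control and 139039 with periplocin, and Myf5 was listed at 0. Of 13 cardiomyocyte markers 9 did, with Nppb at 0, and their summed level was 14711 in control and 14592 with periplocin. Of 10 fibroblast markers 5 did, with sums of 776451 and 766376, and Dcn, Fap, Lum and Tcf21 were at 0. Of 10 endothelial markers 4 did, with sums of 953 and 819, and Emcn, Erg and Kdr were at 0. Of 12 leukocyte markers 4 did, with sums of 218 and 245, and Itgam and Tyrobp were among those at 0. Of 8 epithelial markers 1 did, with sums of 1024 and 1105, and Krt5, Krt14, Krt18 and Krt19 were at 0. Some sums rest mostly on few genes. Among the cardiomyocyte markers Gja1 had a mean of 8992, while Myh6 had 291 and Nkx2-5 had 82.1. Among the fibroblast markers Col1a1 and Col1a2 had means of 383423 and 298086. No marker of these 6 lists was called by the authors' DESeq2 test, and none had an unadjusted p under 0.05. The ribosomal RNA entry Rn18s was at 382 and 262, 0.686-fold (0.547 to 0.860), and Rn45s at 0.966-fold (0.747 to 1.25), neither called. The part of these levels in the calls was not tested.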

How the data were processed

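RNA of rat H9c2 cells was sequenced in 18 libraries (control, bufalin and periplocin, each with 3 m6A pull-down and 3 input libraries); the kit was stranded with unique molecular identifiers, per the labels' protocols. HISAT2, StringTie, DESeq and the build rn6 are named in the submitters' processing notes; the sources used here do not give versions, peak caller or annotation. The deposited expression tables hold 1 signal per gene, read as DESeq2's mean of normalized counts, with log2 fold changes and standard errors by the authors. The deposited score was read as the Wald statistic and the deposited p-values as Wald and Benjamini-Hochberg adjusted p-values; the column names alone do not state this. In the peak list the authors' fold enrichment was read as a ratio of pull-down over input, and the deposited log10 values as those of p and FDR.

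Signs came from the log2 fold change: the Wald score had the opposite sign in 12913 of 12913 genes. Read this way, the control levels of the periplocin and bufalin tables coincided within 1% in 10608 of 10608 genes after a log2 offset of -0.05; with the sign turned they did in 1158. Calls are the authors' adjusted p under 0.05. Group levels follow from the mean and fold with 3 libraries a group, intervals are 95% Wald, and a control level under 1 was set to a floor of 3 counts per library. Depth per library was not analysed here. Lists are described by counts and medians, with no test. The members, lists and tests were chosen with earlier results of these data known, and the role groups after seeing the calls. Named genes are the 15 largest rises and all falls among called genes, called list members, the 2 genes of smallest p in each list without a call, genes differing from bufalin, pump subunits and the 3 members nearest the threshold on each side; all other called genes are given by group. Some genes that the rule takes are not reported here. A RefSeq table (GRCr8) gave names, lengths and neighbours for 98.97% of members, and none of its gene coordinates were set against rn6; exon numbers were not used. Alternatives covered thresholds, count filters, re-adjustment, centring, peak strength and promoter window. The software was Python 3.11.15 with scipy 1.17.1, pandas 2.3.3, matplotlib 3.10.9 and numpy 2.4.6.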

Additional observations from a re-analysis of the deposited data

Results flagged for a closer look

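The change against the shared controls differed between periplocin and bufalin, by the Wald test of the difference, in 8 genes. The log2 difference, periplocin minus bufalin, was 0.48 for Amotl2, 0.58 for Klf6, 0.84 for Myc, 0.99 for Vof16, 0.65 for Dusp1 and 0.95 for Edn1. It was -0.52 for H19 and -0.70 for Myh1. The dose and time of either compound are not in the labels.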

How the results depend on the processing

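The count of 60 called genes was 42 at an adjusted p threshold of 0.01 and 89 at 0.1. It was 61 after re-adjustment over the members, with all 60 kept and Cep295nl added, 59 with a mean of at least 50, 57 with a mean of at least 200 and 67 with no filter on the mean. A minimum change of 1.5-fold left 15, which follows from the small size of most changes. The 24 called list genes stayed 24 with a mean of at least 50 or 200. The median of the muscle and sarcomere list changed sign with a mean of at least 50 and of 200, and that of the protein phosphatase 1 regulators with a mean of at least 200 and after centring on the median of all members; the largest move of a list median was 0.031 on the log2 scale. The 8 differences from bufalin were 8 with a mean of at least 200 and at a threshold of 0.1, and the same 8 genes were called with the higher mean. Peaks with a log10 FDR of -5 or lower lay on 46 called genes, against 48, and 7 higher genes held a promoter word with and without the bases after the start. The median length of the called genes was 14.96 kb and 15.97 kb with a mean of at least 200 and 1000, chosen after seeing the data, as was the count without the copies. No paired analysis was possible because the tables hold comparisons and carry no replicate numbers, and for the same reason no replicate was left out; whether 1 library decides a call is not known. Counts limit small changes in genes with low levels.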

Other observations

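Just beyond the threshold lay genes that the lists do not hold, with DESeq2 adjusted p-values between 0.0518 and 0.0614 in the authors' deposited table. Cep295nl stood at 221 in control and 381 with periplocin, 1.72-fold (95% Wald interval 1.28 to 2.31). The cyclin Ccnl1, a partner of splicing-linked kinases, stood at 3694 and 6208, 1.68-fold (1.26 to 2.24), and the deacetylase Sirt1 at 343 and 522, 1.52-fold (1.21 to 1.91). Thoc2, of the mRNA export complex THO, stood at 1.18-fold (1.08 to 1.30) and Tns2, a focal adhesion protein, at 1.17-fold (1.07 to 1.28). Masp2 and Acot3 were at 2.57-fold (1.54 to 4.29) and 2.89-fold (1.62 to 5.17), from counts of 58.9 and 61.6. Lower values were those of Ptges3, the Hsp90 co-chaperone p23, at 0.857-fold (0.787 to 0.932), and Ccdc80, a matrix protein, at 0.877-fold (0.815 to 0.942). These genes were chosen for their place next to the threshold and were not called.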
